A study of Bos taurus with 24 samples.

Results

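The interferon-stimulated genes followed here were chosen by name. A list of 43 symbols was matched to the gene rows of the expression tables, and 41 were found, each on 1 row, among 27550 rows with a gene symbol and 59846 rows in all. No row carried the symbols IFI44L and GBP2. The libraries were made from dermal fibroblasts, the matrix-producing connective tissue cells of the skin, of 4 Holstein (dairy) and 4 Angus (beef) heifers, and the study asked whether the cells of the breeds respond differently to a bacterial signal. Each culture received 100 ng/ml of lipopolysaccharide (LPS), the outer membrane glycolipid of gram-negative bacteria, and RNA was collected at 0 h (before exposure, the control), 2 h and 8 h, which gave 6 groups of 4 samples and 24 samples in all. The animals were females in the second year of life and gave 1 shoulder skin culture each. The cells had been frozen and revived, grew in medium with fetal bovine serum, and lysates of duplicate wells were pooled before extraction. No untreated culture at 2 or 8 h was analysed here, so exposure to LPS and the hours spent in culture cannot be told apart in any change from 0 h.

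Interferons are secreted cytokines that bind receptors on the same or neighbouring cells. Type I interferons signal through IFNAR1 and IFNAR2, the kinases JAK1 and TYK2 and a transcription factor complex that holds IRF9, which switches on genes whose products detect, cut, edit or trap foreign nucleic acid and virus particles. TLR4, the receptor for LPS, can reach the same genes because its TRIF adaptor (TICAM1) leads to IRF3 and to the production of interferon beta. Fibroblasts are a classical source of interferon beta, and many of these genes are also held at a low standing level without any stimulus.

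The libraries held 51014538 to 104406293 counts (median 76079546), and levels are given in CPM, counts scaled to a common library size, with TMM factors; 3 counts, the floor used here, came to 0.0287 to 0.0588 CPM. Between 92.88 and 96.54% of reads had matched the genome. All 10 fibroblast markers were well above 1 CPM in every library (COL1A1, 5381 CPM or more), and their sum at 8 h was 61172 to 79441 CPM in Holstein and 37819 to 59355 CPM in Angus. Markers of most other skin cells were low. The 8 leukocyte markers summed to 3.07 to 6.68 CPM, with the pan-leukocyte gene PTPRC at 0.706 CPM or less, and the 5 endothelial markers to 2.02 to 5.24 CPM. The endothelial sums overlapped between breeds at 0 h but not later. They were 3.19 to 4.73 CPM in Holstein and 2.05 to 2.95 CPM in Angus at 2 h. At 8 h they were 3.53 to 5.24 CPM in Holstein and 2.605 to 3.335 CPM in Angus. The 6 melanocyte markers summed to 5.65 to 12.2 CPM, most of it MITF, which other cells also make; at 8 h they were at 6.49 to 8.34 CPM in Holstein and 9.37 to 12.2 CPM in Angus, without overlap. Genes of pericytes and smooth muscle, some of which fibroblasts also use, were present (5 markers, 395 to 803 CPM), at 445 to 535 CPM in Holstein at 0 h and 642 to 696 CPM at 2 h, and at 396 to 553 CPM and 606 to 803 CPM in Angus, without overlap of the hours; at 8 h the sums were 395 to 520 CPM. The 6 keratinocyte markers summed to 1.30 to 14.9 CPM, the high values being those of Holstein animal 1, where KRT5 was at 8.32 to 10.2 CPM, while KRT1 had 0 counts in all 24 libraries. The part of any of these cell types in the results was not tested. In 4 libraries (Holstein 2 and 4 and Angus 4 at 0 h, Angus 3 at 2 h) a COL1A1 count covered 66.2 to 67.1 bases, against 111.8 to 119 bases in the other 20. These 4 libraries stood apart for a reason that was not tested, and counts without them are given where they differ. Without them 25 genes in place of 26 were called in Holstein at 8 h against 0 h (IFI6 and USP18 lost, IFI44 added) and 11 in place of 10 in Angus at 8 h against 2 h (TRIM21 and UBA7 added, MX1 lost). In bulk RNA, more cells of a responding kind and more RNA per cell cannot be told apart.

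On the UMD v3.1 build the 41 genes lay on 18 chromosomes, and 13 of them stood in 8 pairs of neighbours less than 100000 bases apart. IFIT2, IFIT3, IFIT1 and IFIT5 formed a row on the plus strand of chromosome 26 (11064805 to 11127465). PARP9, DTX3L and PARP14 adjoined on chromosome 1 (67559264 to 67659267), MX2 and MX1 on the same chromosome (143119272 to 143204866), OAS2 and OAS1 on chromosome 17 (63611774 to 63678163), and RSAD2 and CMPK2 head to head on chromosome 11 (90012623 to 90059038). Several of these counts are uncertain. The rows of OAS1 and OAS2 shared 1978 bases, MX2 shared 24274 bases with FAM3B, GBP5 lay wholly inside the row of GBP6, GBP4 spanned 299092 bases over other guanylate-binding genes, and EIF2AK2 and SAMHD1 also overlapped other rows. MX1 with MX2, the OAS, IFIT and guanylate-binding genes are families of similar sequence, among which reads could be shared.

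After 8 h of LPS the interferon-stimulated genes were raised in Holstein cells. A gene is called past the threshold here when its false discovery rate (FDR, Benjamini-Hochberg over all rows tested by edgeR's likelihood-ratio test) is under 0.05, its fold change is 2 or more and its average is above 1 CPM. In Holstein, 37 of the 41 genes passed the filter on low counts (1 CPM or more in 50% of the samples compared), and 26 were past the threshold at 8 h against 0 h, all of them higher (of the 20489 rows tested, 1.91% were called higher). All 8 h values lay above all 0 h values in 33 of the 37, as in 10.3% of rows. An FDR under 0.05 was reached by 35 of the 37, again all higher, as it was by 8.19% of rows. By role, 3 of 3 RNA sensors, 3 of 5 genes of the ISG15 system, 9 of 14 inhibitors of virus replication, 2 of 4 IFIT genes, 1 of 2 guanylate-binding proteins, 3 of 4 ADP-ribosyl and ubiquitin regulators and 5 of 9 other genes were called. Since 8 of the 26 (ISG15, MX2, OAS1, OAS2, IFIH1, IFI27, RSAD2 and RTP4) reached 1 CPM in no 0 h library and entered the test through the 8 h libraries alone, all 41 were also fitted with no filter. The same 26 were then called, 38 had an FDR under 0.05 (3.2% of rows), and the median log2 fold change was 1.53 over the 41 genes against 0.00 over all 50008 rows (background called higher, 0.792%). With the animal as a block, 25 were called (2.05% of rows). In Angus, only 28 genes passed the filter and 3 were past the threshold at 8 h (IFIH1, BST2 and GBP5), while 0.592% of rows were called higher. Of these 3, IFIH1 entered the test through the 8 h libraries alone. Without the filter, 6 of 41 were called in Angus, with ISG15, OAS1 and DHX58 added (0.262% of rows called). An FDR under 0.05 was reached there by 13 (0.737% of rows), and the median log2 fold change was 0.44. The count in Angus rose to 5 with the animal block (MX1 and CMPK2 were added, 0.815% of rows) and to 7 when animal 4 was left out (ISG15, OAS1, DHX58 and RTP4 were added), and to 5 over the rows with a gene symbol alone (ISG15 and DHX58 were added). The 2 breeds' counts do not by themselves show a difference between breeds, which is tested further on.

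**Figure D1:**
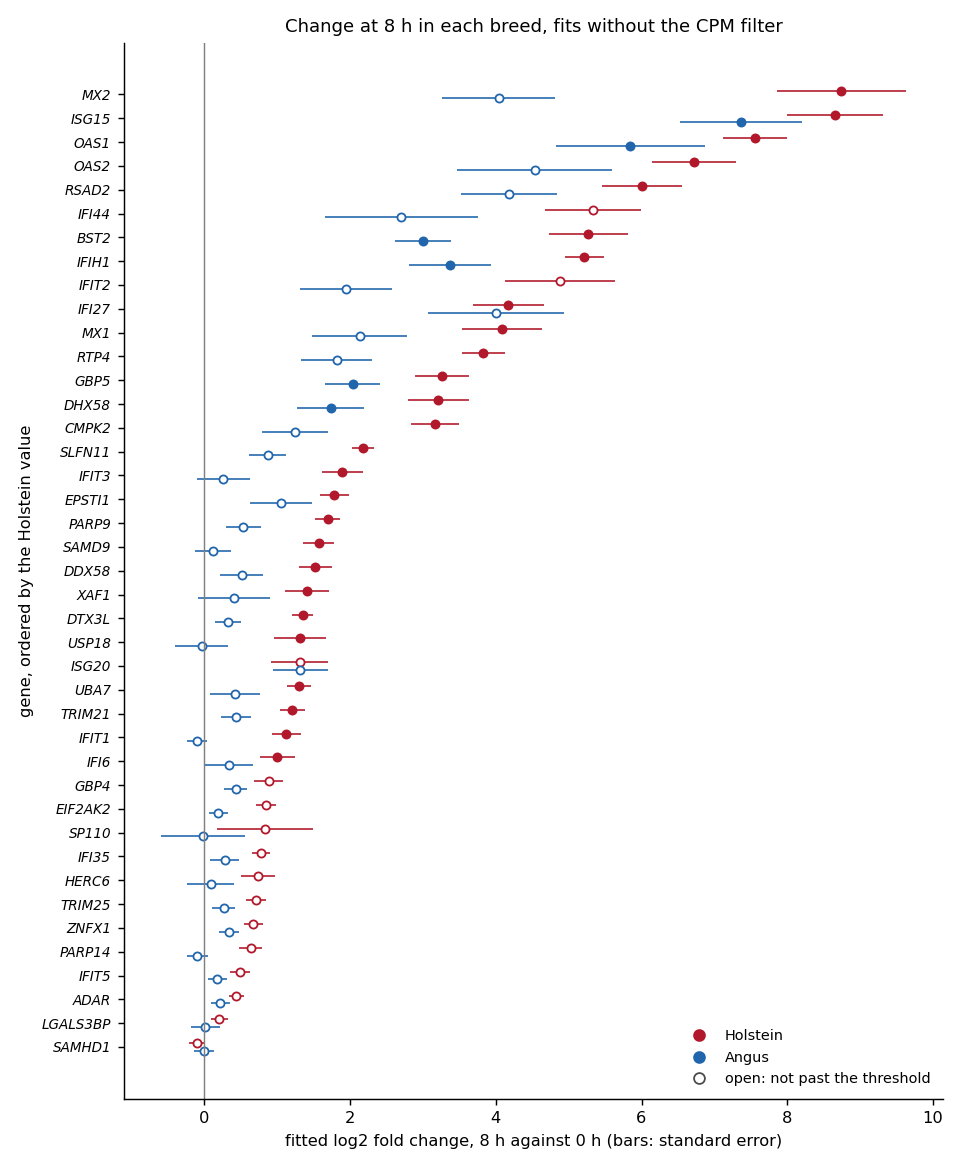
Fitted log2 fold change at 8 h against 0 h for the 41 interferon-stimulated genes in Holstein (red) and Angus (blue), with standard errors, from fits without the filter on low counts. Filled points were past the threshold, which also asks for an average above 1 CPM; in Holstein 26 were filled and in Angus 6.

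Among the RNA sensors, which recognise viral RNA in the cytoplasm, all 3 rose in Holstein. IFIH1 (MDA5, the sensor of long double-stranded RNA) was at 0.388, 0.626, 0.397 and 0.460 CPM in Holstein animals 1 to 4 at 0 h and at 17.2, 11.02, 19.9 and 21.4 CPM at 8 h; values are given in this order of animals throughout. Angus cultures were at 0.644, 0.117, 0.766 and 0.312 CPM at 0 h and 4.70, 2.85, 8.97 and 2.51 CPM at 8 h. The 8 h values lay above the 0 h values in both breeds without overlap, and every Holstein culture was above every Angus culture at 8 h. The log2 fold change was 5.22 ± 0.27 (SE) in Holstein (FDR 1.6e-67) and 3.38 ± 0.58 in Angus (FDR 2.01e-05). DDX58 (RIG-I, the sensor of short RNA with a 5′ triphosphate) had a standing level of 5.58 to 8.06 CPM at 0 h over both breeds. At 8 h it was at 22.0, 11.4, 25.7 and 24.1 CPM in the Holstein cultures and 6.68, 6.43, 15.0 and 6.03 CPM in Angus, where only animal 3 stood out. It rose in Holstein (1.53 ± 0.23, FDR 7.45e-09). DHX58 (LGP2, which modulates the other sensors) was at 0.441 to 1.41 CPM at 0 h and, at 8 h, at 12.02, 3.70, 11.7 and 10.8 CPM in the Holstein cultures and 1.73, 2.38, 4.87 and 0.865 CPM in the Angus cultures. Holstein animal 2 fell inside the Angus range. The change in Holstein was 3.22 ± 0.43, FDR 3.64e-10. In Angus the gene was below the filter, and it was called higher in the fit without a filter.

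ISG15 is a ubiquitin-like protein that is attached to other proteins. It was near 0 at 0 h, at 0.0195 to 0.0657 CPM over both breeds, or 1 to 5 counts a library. At 8 h it was at 24.97, 3.44, 21.2 and 25.8 CPM in the Holstein cultures and 2.96, 3.00, 14.2 and 0.823 CPM in Angus. Holstein animal 2 lay with the low Angus cultures and Angus animal 3 with the Holstein ones, so the breeds overlapped. The log2 fold change was 8.66 ± 0.67 in Holstein (FDR 2.77e-26) and, in the fit without a filter, 7.37 ± 0.84 in Angus (FDR 1.17e-10), both measured from those few counts at 0 h. UBA7, the enzyme that activates ISG15, was at 31.6, 20.3, 31.3 and 31.8 CPM in Holstein at 8 h, from 11.6 ± 0.970 CPM (SD, n = 4) at 0 h (1.31 ± 0.16, FDR 4.87e-14). The Angus cultures were at 9.85, 10.9, 22.1 and 7.16 CPM at 8 h, again with animal 3 apart. USP18, the protease that removes ISG15 and restrains interferon signalling, was at 7.32, 4.75, 2.95 and 4.93 CPM in Holstein at 0 h and 14.5, 5.14, 13.4 and 16.5 CPM at 8 h (1.32 ± 0.37, FDR 0.00582). The groups overlapped, animal 2 at 8 h being below animal 1 at 0 h, and the call was lost without animal 3 (FDR 0.0848), without animal 4 (0.119) and without the 4 libraries (0.146). Angus cultures were at 2.44, 4.17, 6.43 and 2.18 CPM at 8 h. HERC6 and TRIM25, ubiquitin-type ligases linked to this system, were higher in Holstein by less than 2-fold (log2 0.74 and 0.72).

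Of the 14 inhibitors of virus replication, 9 rose in Holstein at 8 h. MX2, a dynamin-like GTPase, had 3 counts over the 4 Holstein libraries at 0 h, with 0 counts in animals 2 and 4, and 1902 counts at 8 h, a ratio per library size of 528.5 (exact 95% counting interval 180.6 to 2565). Its level at 8 h was 6.02, 3.19, 5.11 and 7.27 CPM in the Holstein cultures and 0.746, 0.363, 0.325 and 0.0977 CPM in Angus, so that the lowest Holstein culture was above the highest Angus one. The counting interval of MX2 pools the 4 libraries of an hour and holds no variation between animals. The 0 h libraries of Holstein animals 2 and 4 are among the 4 that stood apart. RSAD2 (viperin, which makes a chain-terminating nucleotide) and CMPK2 (a mitochondrial nucleotide kinase) lie side by side. RSAD2 was at 4.65, 1.49, 3.97 and 3.68 CPM in the Holstein cultures and 0.809, 0.619, 1.28 and 0.195 CPM in Angus at 8 h, from 0.0149 to 0.109 CPM at 0 h. CMPK2, at 0.372 to 1.23 CPM at 0 h, was at 5.88, 3.49, 7.36 and 6.88 CPM in Holstein animals 1 to 4 and 2.12, 0.753, 3.08 and 1.51 CPM in the Angus animals. For both genes, too, every Holstein culture was above every Angus culture at 8 h. In Holstein RSAD2 changed by 6.01 ± 0.55, FDR 8.28e-26 and CMPK2 by 3.17 ± 0.34, FDR 8.41e-17.

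OAS1 and OAS2 make the second messenger that activates the RNA-cutting enzyme RNase L. OAS1 was at 0.105 to 0.437 CPM in Holstein at 0 h and at 52.3, 18.6, 52.6 and 53.8 CPM at 8 h. Angus was at 0.0585 to 0.306 CPM at 0 h and at 2.25, 3.58, 37.9 and 0.446 CPM at 8 h. The Angus cultures were spread over 84.8-fold, with animal 3 inside the Holstein range. OAS2 was at 7.33, 1.98, 6.46 and 7.21 CPM in the Holstein cultures and 0.253, 0.377, 4.28 and 0.0698 CPM in Angus at 8 h, with animal 2 the lowest Holstein culture and animal 3 the highest Angus one, as for OAS1. Both rose in Holstein (OAS1 7.56 ± 0.47, FDR 2.13e-35, OAS2 6.73 ± 0.59, FDR 4.24e-25). In Angus both were below the filter, and OAS1 was called higher in the fit without a filter. MX1, the neighbour of MX2, was already at 1.51 to 7.99 CPM at 0 h. MX1 reached 75.3, 12.6, 22.4 and 78.8 CPM in Holstein at 8 h and 6.41, 18.9, 55.5 and 6.07 CPM in Angus. Animals 1 and 4 were the high Holstein cultures and animal 3 the high Angus one, and the breeds overlapped. The change was 4.09 ± 0.57, FDR 1.90e-08 in Holstein; with the animal block it also passed in Angus (1.62 ± 0.32, FDR 3.82e-05).

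BST2 (tetherin, which holds budding virus particles on the cell) was at 1.24, 2.14, 0.982 and 2.04 CPM in Holstein at 0 h and 63.8, 8.98, 85.7 and 88.3 CPM at 8 h. It was at 2.09, 1.66, 2.76 and 1.95 CPM in Angus at 0 h and 15.5, 13.1, 31.5 and 7.32 CPM at 8 h. Every culture of both breeds was above its own 0 h level, but Holstein animal 2 stayed within the Angus range. The log2 fold change was 5.27 ± 0.57 in Holstein (FDR 6.31e-13) and 3.01 ± 0.40 in Angus (FDR 2.74e-09). SLFN11, which cuts transfer RNA, was at 4.21, 3.35, 3.87 and 3.59 CPM in Holstein at 0 h and 17.2, 19.5, 14.2 and 16.95 CPM at 8 h (2.18 ± 0.14, FDR 1.58e-46). Holstein animal 2 was the highest of the 4 at 8 h in this gene alone. The Angus cultures were at 8.76, 7.35, 4.11 and 8.21 CPM at 0 h and 14.1, 15.4, 9.62 and 12.7 CPM at 8 h (0.88 ± 0.26, FDR 0.0248, less than 2-fold). SAMD9, which blocks translation of poxviruses, was at 6.79, 5.97, 7.404 and 8.47 CPM in Holstein at 0 h and 19.1, 13.7, 25.2 and 27.0 CPM at 8 h (1.58 ± 0.22, FDR 1.31e-10). Angus cultures were at 11.4, 12.1, 7.22 and 15.4 CPM and 9.84, 12.9, 11.3 and 16.02 CPM at the same hours, and these ranges overlapped. The kinase EIF2AK2 (PKR), the RNA editor ADAR and the helicase ZNFX1 were higher in Holstein by log2 0.85, 0.44 and 0.68, all with an FDR of 8.12e-05 or less but under 2-fold.

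The IFIT proteins bind foreign RNA and stop its translation. IFIT3, at 1.00 to 4.08 CPM at 0 h, rose in Holstein to 7.0, 4.18, 7.32 and 8.07 CPM (1.90 ± 0.28, FDR 4.39e-09), while Angus was at 3.53, 3.00, 3.81 and 3.60 CPM, a range that no Holstein culture entered. IFIT1 was at 61.7, 60.6, 67.1 and 63.7 CPM in Holstein at 0 h and 133, 82.4, 159 and 176 CPM at 8 h. Angus began higher, at 88.0, 74.6, 78.5 and 91.4 CPM, and ended at 74.2, 69.1, 88.8 and 77.6 CPM. All 4 Holstein cultures went up and 3 of the 4 Angus cultures ended below where they began. The log2 fold change was 1.13 ± 0.20 in Holstein (FDR 1.79e-06), and it was 0.99 when animal 4 was left out. IFIT5 was higher by 0.49 on the log2 scale in Holstein, under 2-fold. IFIT2 stayed under the filter, at 0.258 to 1.29 CPM in Holstein and 0.0837 to 0.354 CPM in Angus at 8 h.

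Guanylate-binding protein 5 (GBP5), a large GTPase that acts on pathogen vacuoles and viral envelopes, was past the threshold in both breeds. It was at 1.66, 1.86, 0.563 and 1.14 CPM in Holstein at 0 h and 16.1, 12.7, 6.30 and 15.0 CPM at 8 h (3.27 ± 0.39, FDR 1.54e-12). In Angus it was at 1.15, 1.68, 1.71 and 1.90 CPM at 0 h and 3.00, 6.60, 11.6 and 5.12 CPM at 8 h (2.04 ± 0.39, FDR 5.65e-05). The breeds overlapped at 8 h. GBP4 was higher in Holstein by 0.89 (log2), under 2-fold.

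Of the 4 regulators that add ADP-ribose or ubiquitin, 3 were called in Holstein and all 4 were higher with an FDR under 0.05. PARP9 and DTX3L, which act as a complex, were at 18.3, 14.0, 22.4 and 22.5 CPM and 20.3, 16.1, 22.4 and 23.2 CPM in Holstein at 8 h. In Angus they were at 8.47, 7.61, 13.7 and 6.99 CPM and 11.2, 10.4, 14.9 and 9.70 CPM. Every Holstein culture was above every Angus culture in both genes. At 0 h all 8 cultures had been at 5.54 to 7.53 CPM for PARP9 and 7.80 to 9.82 CPM for DTX3L. The changes in Holstein were 1.7 ± 0.17, FDR 2.17e-20 for PARP9 and 1.36 ± 0.13, FDR 8.54e-21 for DTX3L. TRIM21, an intracellular antibody receptor, was at 8.999, 7.91, 8.202 and 9.16 CPM in the Holstein cultures and 3.83, 4.71, 5.21 and 3.33 CPM in Angus at 8 h, and these ranges did not overlap (change in Holstein 1.21 ± 0.16, FDR 3.19e-11). PARP14 was higher in Holstein by 0.64 (log2), under 2-fold.

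Of the remaining 9 genes, 5 were called in Holstein at 8 h. IFI27, a small mitochondrial protein, was at 7.63, 2.84, 10.7 and 5.41 CPM in the Holstein cultures and 0.506, 0.619, 1.64 and 0.0419 CPM in Angus. RTP4, a chaperone of G protein-coupled receptors, was at 3.06, 4.00, 3.55 and 5.03 CPM in Holstein at that hour and 1.13, 1.40, 2.20 and 0.642 CPM in Angus. In both genes Holstein stood clear of Angus. EPSTI1 was at 19.6, 15.3, 14.1 and 19.8 CPM in Holstein at 8 h and 4.51, 8.90, 12.5 and 3.45 CPM in Angus. XAF1, which opposes an inhibitor of apoptosis, was at 3.03, 2.02, 3.06 and 2.04 CPM in the Holstein animals and 0.986, 0.780, 1.54 and 0.335 CPM in the Angus animals. In these 4 genes the lowest Holstein culture was above the highest Angus one, and at 0 h no culture had been above 1.33 CPM in IFI27, RTP4 or XAF1. The changes in Holstein were 4.17 ± 0.51, FDR 1.6e-11 for IFI27, 3.84 ± 0.28, FDR 2.58e-38 for RTP4, 1.79 ± 0.20, FDR 7.01e-16 for EPSTI1 and 1.41 ± 0.29, FDR 4.36e-05 for XAF1. IFI6, which stabilises mitochondria, was at 5.09, 4.21, 3.80 and 3.88 CPM in Holstein at 0 h and 11.7, 5.25, 8.40 and 8.70 CPM at 8 h, and at 3.82, 4.99, 7.16 and 2.41 CPM in Angus at 8 h. It only just passed in Holstein (1.01 ± 0.24) and was under 2-fold with the animal block (0.97 ± 0.18), without the 4 libraries and without animal 1, 3 or 4 (0.92 to 0.97).

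**Figure D2:**
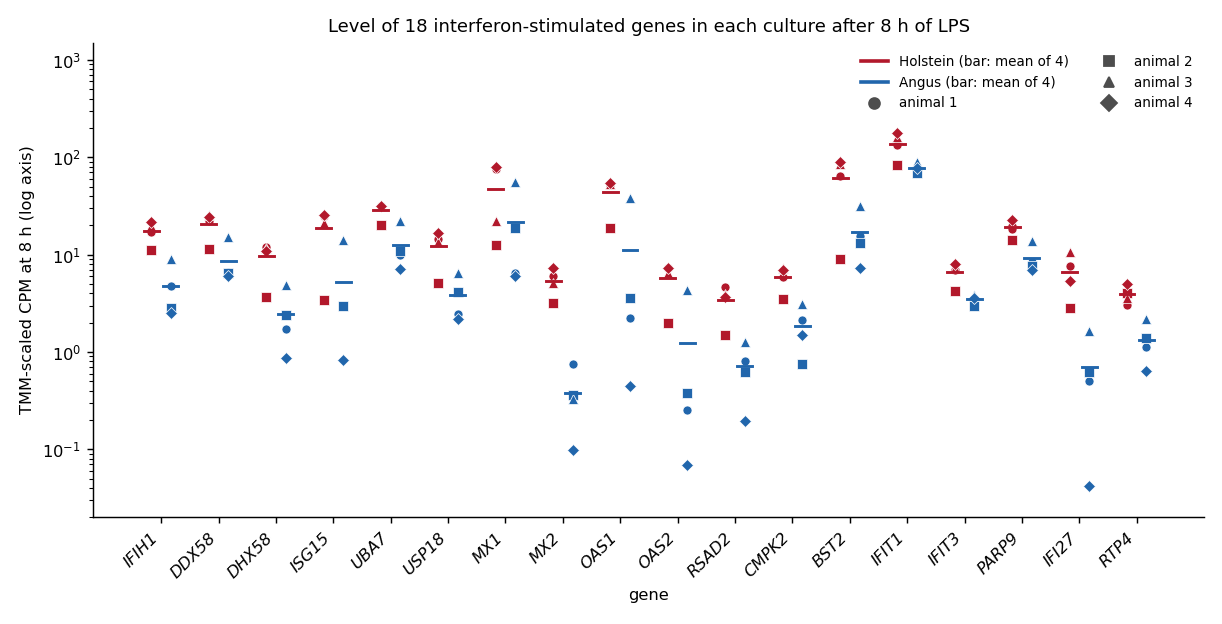
TMM-scaled CPM (log axis) of 18 interferon-stimulated genes at 8 h in each Holstein (red) and Angus (blue) culture; symbols mark the animal and bars the mean of 4. For MX2 the Holstein cultures sit between 3.19 and 7.27 CPM and the Angus cultures between 0.0977 and 0.746 CPM; Holstein animal 2 (square) and Angus animal 3 (triangle) are often at the near edges of their groups.

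The breeds were next compared at each hour. At 8 h, 38 of the genes passed the filter and 15 were higher in Holstein, none lower, while 2.22% of all rows tested were called higher and 1.03% lower. An FDR under 0.05 was reached by 23 (8.72% of rows), and in 16 genes all 4 Holstein cultures lay above all 4 Angus cultures, which held for 10.8% of rows. Of these 16, IFIT3, PARP14, DTX3L, IFI35, TRIM25 and ZNFX1 were not called. With no filter the same 15 of 41 were called (0.861% of rows). The 15 were MX2 (log2 3.81 ± 0.48, FDR 4.36e-10), IFI27 (3.24 ± 0.75), RSAD2 (2.25 ± 0.51), DHX58 (1.96 ± 0.52), BST2 (1.88 ± 0.62), IFIH1 (1.87 ± 0.40), USP18 (1.7 ± 0.43), CMPK2 (1.66 ± 0.40), RTP4 (1.54 ± 0.35), XAF1 (1.47 ± 0.40), DDX58 (1.29 ± 0.35), EPSTI1 (1.24 ± 0.37), UBA7 (1.20 ± 0.33), PARP9 (1.07 ± 0.25) and TRIM21 (1.01 ± 0.18). All 3 RNA sensors were among them. ISG15, OAS1, OAS2 and IFI44 had log2 differences of 1.85, 2.01, 2.21 and 2.34 and were not past the threshold; in each, Angus animal 3 was the highest Angus culture. When that animal was left out, 21 genes were called, with ISG15, MX1, OAS1, OAS2, IFI6 and GBP5 added. Without Holstein animal 4 the count was 10, with BST2, PARP9, TRIM21 and EPSTI1 lost; MX2 was then below the filter, as it was without any 1 Holstein animal, since it reached 1 CPM in those cultures alone. BST2 was also not called without Angus animal 1, 2 or 4 or Holstein animal 1 or 3, PARP9 without Angus animal 2 or 4 or Holstein animal 3, TRIM21 without Angus animal 1 or 4 or Holstein animal 1, and EPSTI1 without Angus animal 1 or 4. In the quasi-likelihood F test BST2 and EPSTI1 missed the threshold (FDR 0.0886 and 0.0565).

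Before LPS none of the genes was called between the breeds. At 0 h, 0 of 26 genes tested were past the threshold (edgeR likelihood-ratio test; 1.74% of rows were called higher and 2.08% lower), and 4 had an FDR under 0.05, all lower in Holstein by less than 2-fold (6.98% of rows), namely IFIT1 (-0.38 ± 0.11), SAMD9 (-0.68 ± 0.23), SLFN11 (-0.91 ± 0.25) and GBP4 (-0.55 ± 0.20). The F test, DESeq2 and the fits without a filter or without the 4 libraries called none either, and SLFN11 was called when Angus animal 3 was left out. At 2 h none of 27 was called either (2.43% of rows higher, 2.02% lower), and DDX58 (0.43 ± 0.15) and PARP14 (0.64 ± 0.16) were higher (10.4% of rows) and IFIT5 (-0.32 ± 0.11) lower (9.71% of rows) in Holstein with an FDR under 0.05.

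Whether the change from 0 h itself differed between breeds was tested as a breed-by-LPS interaction. At 2 h no gene of 27 tested was past the threshold (0.193% of rows higher, 0.0843% lower). At 8 h the change was larger in Holstein in 4 of 30 genes tested, against 0.0835% of rows: IFIT1 (1.21 ± 0.25, FDR 0.00276), DTX3L (1.01 ± 0.21, FDR 0.00283), SAMD9 (1.44 ± 0.34, FDR 0.0256) and SLFN11 (1.29 ± 0.30, FDR 0.0163). Every Holstein culture changed by more than every Angus culture in 16 of the 30, these 4 among them, as in 4.76% of rows. They include 3 of the 4 genes that began lower in Holstein, in the same 0 h libraries. With the animal as a block, which uses each culture as its own control, 12 genes were called (0.427% of rows), the same 4 and MX1 (2.22 ± 0.46), CMPK2 (2.03 ± 0.48), IFIH1 (1.75 ± 0.39), IFIT3 (1.48 ± 0.43), GBP5 (1.39 ± 0.32), USP18 (1.38 ± 0.39), PARP9 (1.16 ± 0.20) and DDX58 (1.05 ± 0.30). The quasi-likelihood F test called 0 without the block and 5 with it. Without the 4 libraries that stood apart, 3 of which are 0 h libraries, 0 were called. Leaving out 1 animal gave 0 calls without Angus animal 1 or Holstein animal 4, 2 without Angus animal 4, Holstein animal 1 or Holstein animal 3, 3 without Angus animal 2, 5 without Holstein animal 2 and 8 without Angus animal 3.

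At 2 h few of the genes were past the threshold. In Holstein 2 of 27 tested were called higher (2.41% of rows) and in Angus 2 of 27 (1.97% of rows). CMPK2 rose in every culture, to 3.00, 3.12, 1.88 and 2.41 CPM in the Holstein cultures and 2.79, 1.604, 1.57 and 1.99 CPM in Angus, from 0.372 to 1.23 CPM at 0 h, with log2 changes of 1.98 ± 0.32 (FDR 2.44e-08) and 1.34 ± 0.35 (FDR 0.00269). SLFN11 rose in Holstein (1.03 ± 0.18; without animal 2 or 4, or without the 4 libraries, it was 0.92 to 0.96 and so under 2-fold), and BST2 in Angus (1.28 ± 0.41). BST2 was not past the threshold there without the 4 libraries (0.77, FDR 0.192) or without animal 1, 2 or 3, nor in the F test (FDR 0.0743). Under the filter but seen in the fit of all 41, RSAD2 was already higher at 2 h in both breeds, at 0.345, 0.486, 0.393 and 0.457 CPM in the Holstein cultures and 0.358, 0.248, 0.996 and 0.394 CPM in Angus (2.98 ± 0.48, FDR 6.28e-10 and 3.64 ± 0.63, FDR 6.08e-07). ISG15 was at 0.193, 0.152, 0.222 and 0.286 CPM in Holstein at 2 h and 0.277, 0.170, 2.84 and 0.110 CPM in Angus, where animal 3 was ahead of the rest, and ISG20, an exonuclease of single-stranded RNA, was higher in both by 1.42 ± 0.46 and 1.47 ± 0.34. All 3 stayed at an average below 1 CPM. The 2 h library of Angus animal 3, the highest Angus one in RSAD2 and ISG15 at that hour, is among the 4 that stood apart.

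Other genes were lower at 2 h, most by less than 2-fold. An FDR under 0.05 with a negative change was found for 7 of 27 genes in Holstein (8.24% of rows) and 7 of 27 in Angus (6.87% of rows). Only IFIT3 (-1.09 ± 0.40, FDR 0.0488) and SAMD9 (-1.04 ± 0.28, FDR 0.00373) in Angus passed the 2-fold limit, against 1.02% of rows, and both lost the call without the 4 libraries (IFIT3 0.79 lower with FDR 0.3, SAMD9 0.74 lower with FDR 0.0687) or without animal 1. IFIT3 also lost it with the animal block (-0.95 ± 0.29, FDR 0.00654), in the quasi-likelihood F test (FDR 0.101), without animal 3 or 4, with RLE scaling (FDR 0.0502), with no filter (FDR 0.0889) and over the rows with a gene symbol alone (FDR 0.0539), and SAMD9 without animal 2. IFIT5 was at 27.5, 29.5, 33.2 and 26.1 CPM in Holstein at 0 h and 15.6, 16.5, 17.2 and 16.03 CPM at 2 h (-0.84 ± 0.10, FDR 4.77e-14). The Angus values were 34.7, 32.3, 34.3 and 29.3 CPM at 0 h and 20.1, 18.4, 21.9 and 20.8 CPM at 2 h (-0.68 ± 0.12, FDR 6.91e-07). The groups did not overlap in either breed. PARP14, a mono-ADP-ribosyl transferase, was at 77.4, 74.1, 77.0 and 65.8 CPM in Angus at 0 h and 37.0, 39.7, 50.9 and 33.9 CPM at 2 h (-0.86 ± 0.16, FDR 1.72e-06). It was at 74.2, 72.1, 93.0 and 82.8 CPM in Holstein at 0 h and 58.5, 56.8, 73.2 and 62.7 CPM at 2 h (-0.36 ± 0.12, FDR 0.0182). DTX3L (-0.64 and -0.75) and IFIT1 (-0.50 and -0.86) were lower in every culture of both breeds.

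The 26 genes with a mean of 1 CPM or more at 0 h in both breeds were followed within each culture. In 13 of them all 8 cultures were lower at 2 h than at 0 h, as in 19.2% of the 19654 rows of that level. In 23 all 8 were higher at 8 h than at 2 h (17.3% of rows). A dip below 0 h at 2 h followed by a rise above 0 h at 8 h in all 4 cultures was seen in 15 genes in Holstein (3.67% of rows) and in 5 in Angus (2.04% of rows), and 4, IFIT5, PARP9, DTX3L and TRIM21, did so in all 8 cultures (0.855% of rows). Measured from 2 h rather than 0 h, 27 genes rose in Holstein (37 tested, 1.73% of rows called higher) and 10 in Angus (29 tested, 0.969% of rows), among them PARP9 (1.04 ± 0.26), DTX3L (1.09 ± 0.23), SAMD9 (1.17 ± 0.25) and IFIT3 (1.36 ± 0.21) in Angus. Of the 27, 8 entered the test through the 8 h libraries alone (ISG15, MX2, OAS1, OAS2, IFIH1, IFI27, RSAD2 and RTP4). With no filter the same 27 of 41 were called in Holstein (0.717% of rows) and 11 in Angus (0.401% of rows). The Angus count was 5 in the quasi-likelihood F test, with MX1, DDX58, BST2, GBP5 and EPSTI1 lost, 6 without animal 1 or 3 and 5 without animal 2. These comparisons share their 8 h libraries with those against 0 h, so the counts are not independent.

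**Figure D3:**
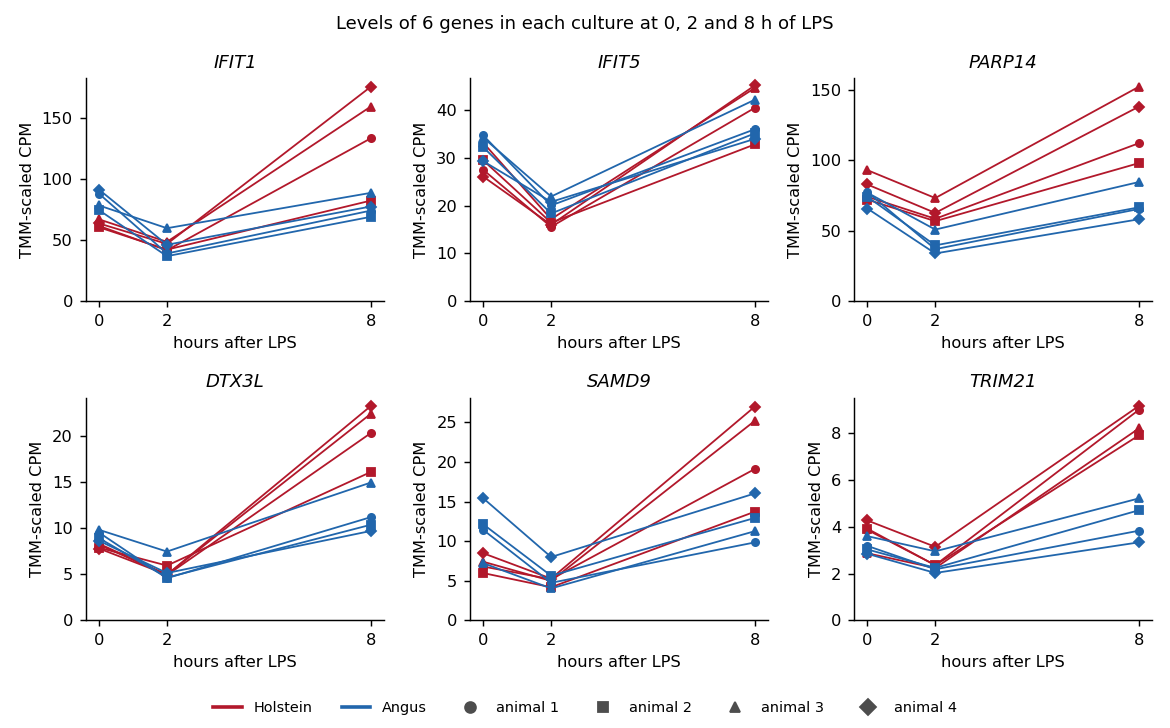
TMM-scaled CPM of 6 genes at 0, 2 and 8 h of LPS, 1 line per culture (red, Holstein; blue, Angus; symbols mark the animal). In IFIT5, DTX3L and TRIM21 all 8 lines go down to 2 h and end above their start at 8 h, whereas in IFIT1, PARP14 and SAMD9 only the Holstein lines all end above their start.

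Cultures of 1 breed differed in how far they responded. The median over the 41 genes of the change in log2(CPM + 1) at 8 h was 1.30, 0.75, 1.62 and 1.56 in Holstein animals 1 to 4 (mean 1.31 ± 0.40, SD, n = 4) and 0.30, 0.34, 0.55 and 0.13 in Angus animals 1 to 4 (0.33 ± 0.17). The ranges did not overlap. Over the rows with a mean of 1 CPM or more, the same median lay between -0.03 and 0.02 in every culture. Holstein animal 2 had the lowest level of its breed at 8 h in 33 of the 41 genes, Angus animal 3 the highest of its breed in 31, and Angus animal 4 the lowest in 29. At 0 h Holstein animal 2 had been lowest in 12 and highest in 15, and Angus animal 3 highest in 21. At 2 h the medians were near 0, at -0.06 ± 0.03 in Holstein and -0.04 ± 0.01 in Angus. A rise of 1 or more on this scale at 8 h was seen in 16 genes in Holstein animal 2 and in 25 to 27 in the other Holstein cultures, and in 14 genes in Angus animal 3 and in 3 to 7 in the other Angus cultures. These summaries describe the cultures and carry no test.

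**Figure D4:**
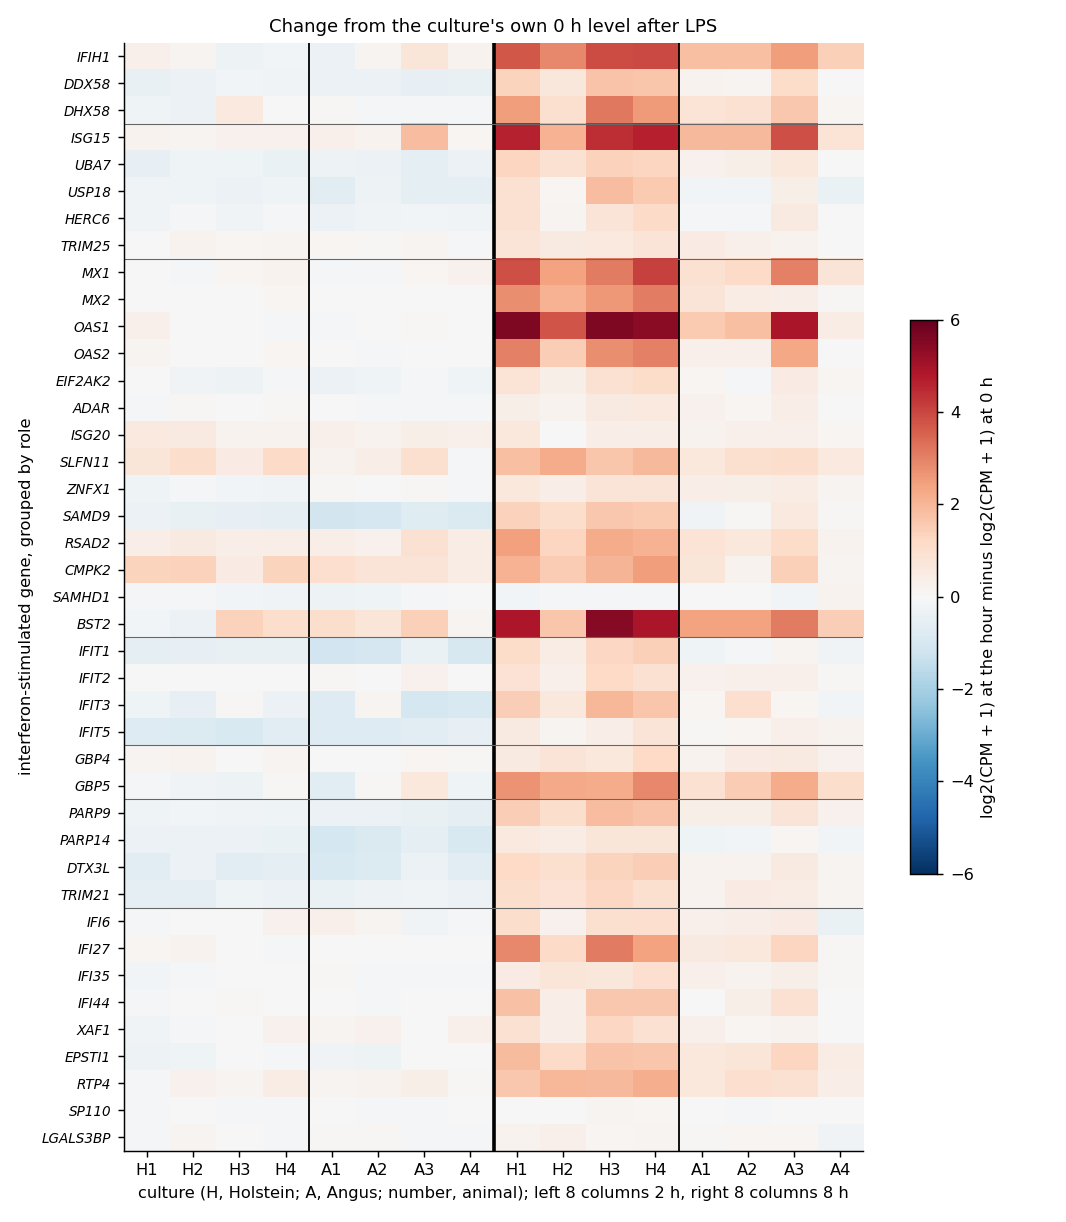
Change in log2(CPM + 1) from the culture's own 0 h level for the 41 genes (rows, by role) in each culture (columns; H, Holstein; A, Angus) at 2 h (left) and 8 h (right). Rises at 8 h are strongest in Holstein animals 1, 3 and 4, with medians of 1.30, 1.62 and 1.56; Holstein animal 2 (0.75) and Angus animal 3 (0.55) lie nearest each other.

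No call in any of the 13 comparisons was made for 13 genes, although IFI44, PARP14 and HERC6 were each called in 1 or 2 comparisons within a breed when animals or the 4 libraries were left out. The 5 of these with the highest levels were ADAR (63.0 to 108 CPM over the 24 libraries), PARP14 (33.9 to 152), LGALS3BP (54.1 to 93.6), ZNFX1 (35.4 to 88.0) and HERC6 (12.03 to 46.0). Among the 13, LGALS3BP, a secreted glycoprotein, and SAMHD1, which degrades nucleotides, were tested in all comparisons and had an FDR under 0.05 in none. SAMHD1 was at 19.4, 18.9, 19.9 and 20.1 CPM in Holstein at 0 h and 17.4, 17.7, 19.0 and 18.7 CPM at 8 h. IFI44, ISG20, IFIT2 and SP110 stayed mostly under the filter. IFI44 nevertheless reached 2.55, 0.394, 2.21 and 2.13 CPM in Holstein at 8 h, from 0.0219 to 0.0597 CPM, and SP110 was at 0.212 CPM or less in every library.

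Other genes of the interferon pathway were followed from a list of 40, of which 36 were found. IFNB2, IFNA1, IFNL3 and IFNLR1 matched no symbol. Among the ligands, IFNB1 was at 0.508, 0.146, 0.331 and 0.109 CPM in Holstein at 0 h, 0.249, 0.0608, 0.536 and 0.257 CPM at 2 h and 0.119, 0.135, 0.309 and 0.110 CPM at 8 h. The Angus cultures stood at 0.194, 0.268, 0.284 and 0.331 CPM, 0.0815, 0.196, 0.627 and 0.142 CPM and 0.190, 0.202, 0.378 and 0.307 CPM. The groups overlapped at every hour and the gene was below the filter. The interferon-induced chemokine CXCL10 reached 0.553 CPM at most, in Holstein animal 2 at 8 h, IFNB3 was at 0.129 CPM or less, and IFNG had 0 counts in all 24 libraries. Of the pathway genes, 26 to 28 were tested in each comparison, and 4 rose at 2 h in Holstein (IFNAR2, IRF1, IRF5 and TICAM1; 2.41% of rows) and 4 in Angus (IFNAR2, IRF1, TICAM1 and TRAF3; 1.97% of rows). At 8 h 3 were higher than at 0 h in Holstein (IFNAR2, IRF1 and IRF7; 1.91% of rows) and 1 in Angus (IRF1; 0.592% of rows), and none was called lower than at 0 h at either hour. In Angus at 2 h, IFNAR2 and TICAM1 were under 2-fold without the 4 libraries (0.69 and 0.97), and IFNAR2, TICAM1 and TRAF3 without animal 3 (0.93 to 0.95); IFNAR2 also lost its call without animal 1 (FDR 0.0769). The adaptors and receptors of the list that were not called in a comparison with 0 h included TLR4, LY96, MAVS and IFNAR1, and CD14, the co-receptor of LPS, was below the filter throughout.

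IRF1, a transcription factor that acts directly on many of these genes, was at 2.78, 3.03, 3.35 and 2.80 CPM in Holstein at 0 h, 43.2, 96.2, 43.8 and 88.6 CPM at 2 h and 16.7, 26.0, 17.5 and 19.8 CPM at 8 h. In Angus it was at 5.83, 4.02, 4.35 and 4.60 CPM, 24.2, 18.6, 54.3 and 9.52 CPM and 16.7, 11.5, 13.7 and 7.91 CPM. Its peak came at 2 h in every culture. The change at 8 h was larger in Holstein (interaction 1.32 ± 0.30, FDR 0.0163), a call that was lost in the F test (FDR 0.342), without the 4 libraries (FDR 0.418), and without Angus animal 2 or Holstein animal 2 or 4. IRF9, a DNA-binding part of the complex that type I interferons activate, was at 25.7, 10.9, 23.4 and 24.1 CPM in the Holstein cultures and 6.12, 7.09, 15.9 and 4.97 CPM in Angus at 8 h, and IRF7, which amplifies interferon production, at 16.3, 4.97, 11.7 and 13.7 CPM in the Holstein cultures and 2.95, 3.03, 8.21 and 2.94 CPM in Angus. Both were higher in Holstein at 8 h (IRF9 1.31 ± 0.39, FDR 0.0119, and IRF7 1.45 ± 0.44, FDR 0.0134). The breeds overlapped in both genes, since Holstein animal 2 lay below Angus animal 3. Neither call held in the F test (FDR 0.059 and 0.0615), nor without Angus animal 1, 2 or 4 or Holstein animal 4 (FDR 0.0557 to 0.0745), and that of IRF7 was also lost without Holstein animal 1. Likewise, the rise of IRF7 in Holstein at 8 h was lost without the 4 libraries (0.97, FDR 0.246), without animal 1, 3 or 4 and in the F test (FDR 0.0814). The receptor TLR4 was higher in Holstein at all 3 hours (1.59 ± 0.50, 2.01 ± 0.41 and 1.33 ± 0.36), but at 0 h not without the 4 libraries (0.91, FDR 0.567), in the F test (FDR 0.0776) or without any 1 of 5 animals (Angus 1, 2 and 4, Holstein 2 and 4), and at 8 h by less than 2-fold without Holstein animal 2 (0.95). At 8 h TLR4 was at 1.92, 4.75, 2.16 and 2.33 CPM in the Holstein cultures. Whether the level of TLR4 bears on the change of the 41 genes was not tested. IRF5 was also called higher in Holstein at all 3 hours, and IRF1 at 2 h. In the F test IRF5 missed the threshold at 0 h and 2 h (FDR 0.0919 and 0.0736), as did IRF1 at 2 h (FDR 0.0955). Those calls were also lost when some single animals were left out.

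**Figure D5:**
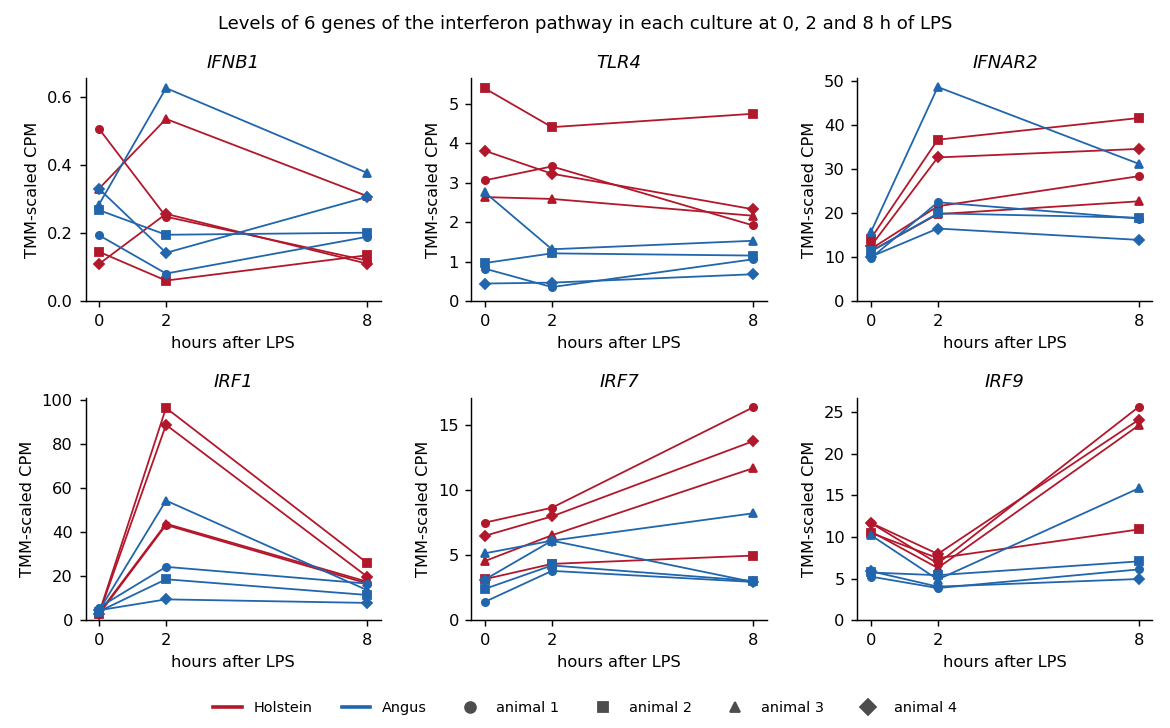
TMM-scaled CPM of 6 interferon pathway genes at 0, 2 and 8 h of LPS, 1 line per culture (red, Holstein; blue, Angus; symbols mark the animal). IRF1 peaks at 2 h in all 8 cultures, IRF9 and IRF7 are highest at 8 h in Holstein animals 1, 3 and 4, and IFNB1 stays at 0.627 CPM or less.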

How the data were processed

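Poly-A RNA of 24 fibroblast samples had been sequenced with unstranded TruSeq libraries. The submitters' processing notes name CASAVA 1.7. Per the file headers the authors aligned reads with NextGENe 2.3.4 to UMD v3.1 and deposited, for each gene and each interval between genes, unnormalized read counts, which were tested here, and a coverage signal (mean depth per base), used only to find the libraries that stood apart. The gene list and the other lists were chosen with earlier results of these data known. Counts were used as deposited, with edgeR 4.0.16 (R 4.3.3) fitted over all rows in each of 13 comparisons, following the study; the 32296 intervals that name no gene held 12.28 to 20.53% of a library's counts (median 13.53%) and stayed in. The settings were TMM scaling, 1 CPM or more in 50% of the samples compared, likelihood-ratio test, Benjamini-Hochberg FDR. A call needed an FDR under 0.05, a 2-fold change and an average above 1 CPM. The quasi-likelihood F test, DESeq2 1.42.0, DESeq2-type (RLE) scaling, other filters, leaving out animals or the 4 libraries, and the animal as a block were alternatives; the block without a filter and a fit to rows with a gene symbol only were added after the data were seen. The block rests on the labels, which give the same animal at each hour. Deviations from group means correlated at 0.614 to 0.656 on average between hours of the same animal (lowest 0.453) and at -0.217 to -0.203 between animals (highest 0.236). Such deviations sum to 0 within a group, which by itself pulls the average between animals below 0. Replicates were separate animals, and no 2 libraries of a group agreed within counting noise. Counting error alone limits counts near 0. Values in every culture are given for the genes called in Holstein at 8 h against 0 h or between breeds at 8 h. 1 gene of the pathway list is not reported here.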

Additional observations from a re-analysis of the deposited data

Results flagged for a closer look

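Among the 26 genes described culture by culture, 52 groups of 4 cultures at 8 h were examined for 1 culture whose gap to its nearest neighbour took a larger share of the group's range than the 95% critical value of Dixon's test, which chance gives in about 1 of 20 groups. In 8 groups 1 culture stood apart in this way, and it was Angus animal 3 or Holstein animal 2 each time. The 26 genes were measured in the same cultures, so the groups are not independent and their number cannot be judged by that rate. Angus animal 3 was far above the other Angus cultures in ISG15 (14.22 CPM), OAS1 (37.85 CPM), OAS2 (4.279 CPM) and DDX58 (15 CPM). Holstein animal 2 was far below the other Holstein cultures in OAS1 (18.57 CPM), OAS2 (1.98 CPM), DHX58 (3.702 CPM) and UBA7 (20.27 CPM).

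The change at 8 h differed between the breeds, by the interaction in the edgeR likelihood-ratio test, in IFIT1 (log2 difference 1.2099, FDR 0.00276), DTX3L (1.0087, FDR 0.00283), SAMD9 (1.4377, FDR 0.0256) and SLFN11 (1.2939, FDR 0.0163), and in IRF1 of the pathway list (1.3233, FDR 0.0163). All 5 were larger in Holstein, and in the F test and without the 4 libraries that stood apart none was past the threshold.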

How the results depend on the processing

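For 105 calls of single interferon-stimulated genes, 1338 values were computed under the alternatives, of which 1211 kept the direction and the call, 127 kept the direction and lost the call and 0 changed sign. For the pathway list 376 of 442 values kept the call and 0 changed sign. Scaling by RLE moved the median of all rows by 0.0124 or less on the log2 scale. The count of called genes at 8 h against 0 h in Holstein (26), at 8 h against 2 h in Holstein (27) and between breeds at 8 h (15) stayed within 1.5 times under every alternative but 1, the FDR alone between breeds (23). Other counts moved by more. Calling by the FDR alone gave 9 genes at 2 h in Holstein, 9 at 2 h in Angus, 13 at 2 h and 25 at 8 h with both breeds together, and 4 at 0 h and 3 at 2 h between breeds. Over all rows, that rule gave 9% higher and 8.24% lower at 2 h in Holstein. In Angus at 2 h it gave 6.88% and 6.87%. With both breeds together it gave 10.8% and 11.2% at 2 h and 6.55% and 6.25% at 8 h. Between breeds it gave 6.83% and 6.98% at 0 h and 10.4% and 9.71% at 2 h. By the full rule, both breeds together gave 2 genes at 2 h (2.08% of rows) and 12 at 8 h (1.07%), all higher. The F test gave 2 at 2 h in Angus, 5 at 8 h against 2 h in Angus and 0 in the interaction at 8 h. Without the 4 libraries the counts were 1 at 2 h in Holstein, 2 at 2 h in Angus, 1 at 2 h in both breeds together and 0 in the interaction at 8 h, 14 in place of 12 genes were called at 8 h in both breeds together, and 8 genes in place of 5 were separated between breeds at 2 h. With all libraries, 3 of 27 were separated higher in Holstein at 2 h and 2 lower, against 12.7% and 11.2% of rows. With no filter 6 were called at 8 h in Angus, and with only the rows that carry a gene symbol 5; that setting moved no other count by over 1.5 times. The replicate block (pairing by animal) gave 5 at 8 h in Angus, 1 at 2 h in both breeds together and 12 in the interaction at 8 h, and with no filter 8, 1 and 15; it moved no other count by over 1.5 times. Leaving out 1 animal gave 1 to 2 at 2 h in Holstein, 1 to 3 at 2 h in Angus, 3 to 7 at 8 h and 5 to 11 at 8 h against 2 h in Angus, 1 to 2 at 2 h in both breeds together, 0 to 1 at 0 h between breeds and 0 to 8 in the interaction at 8 h. The median change per culture at 2 h was -0.0995 in Holstein and -0.08049 in Angus with a pseudocount of 0.25, and -0.1006 and -0.08958 over the genes with a mean of 1 CPM or more. The cause of these differences was not tested. Genes near 0 counts at 0 h limit the precision of their fold changes, and 4 animals a breed limit every comparison of breeds.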
